A study of Mus musculus with 6 samples.

Results

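The genes described here are 39 mouse genes of glycolysis and of the response to low oxygen: the enzymes that break down glucose, the transporters that bring in glucose and export lactate, the HIF transcription factors, the enzymes that mark HIF for destruction, and some genes that HIF switches on. They were taken by symbol from a list that was drawn up with earlier results of these data known, and all 39 are among the 23420 genes of the deposited table. Of these 39 genes, 36 passed the filter on low values (a normalized count of at least 10 in at least 3 libraries), and 34 of them had at least 10 in every library. The 3 that did not pass were Eno1, Epas1 and P4ha2. The cells were wild-type (WT) eosinophils grown from mouse bone marrow. Marrow cells were expanded in stem cell factor and FLT3 ligand and matured in IL-5 at 20 ng/mL, and after removal of dead cells they were used on day 14. One group received IL-33 at 2.5 ng/mL for 3 hours (3 libraries), and the other received phosphate-buffered saline, PBS, over the same time (3 libraries). IL-33 is an alarmin, a cytokine that damaged tissue releases. Both groups had been matured in the same IL-5 medium, and whether the 3 libraries of a group stem from different mice is not stated. Libraries are numbered as the replicates in the labels. The p-values therefore measure how these libraries scatter, which can be purely technical.

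Glycolysis splits glucose into pyruvate in the cytosol, and lactate dehydrogenase turns pyruvate into lactate when the cell does not burn it in mitochondria. Granulocytes are known to draw much of their energy from this pathway. The HIF transcription factors are pairs of an alpha subunit (Hif1a or Epas1) and the stable partner Arnt. In the presence of oxygen, the EGLN prolyl hydroxylases mark the alpha subunit, VHL then directs it to degradation, and the asparagine hydroxylase HIF1AN blocks its activity. Several of these hydroxylase genes are themselves HIF targets in many cell types, which makes a feedback loop. Hif1a messenger RNA is also known to be raised by NF-kB, which IL-33 activates through its receptor.

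The 6 libraries held between 8218303 and 10785521 reads, recovered from the deposited values, of which 13.7% to 59.6% fell on Rn45s, which gives rise to the precursor of ribosomal RNA. This share was 24.3%, 59.6% and 54.8% in IL-33 libraries 1 to 3, and 24.8%, 23.3% and 13.7% in PBS libraries 1 to 3. Between 4229504 and 7129435 reads remained for other genes. Eosinophil markers were present in every library, with Prg2, which encodes major basic protein, at 12715, 20834 and 11033 normalized counts across IL-33 libraries 1 to 3, against 30118, 41054 and 28512 across PBS libraries 1 to 3. Of 11 eosinophil markers in the table, 10 were lower after IL-33 and 0 higher, and their summed normalized count was 19285 to 31963 in IL-33 libraries and 52964 to 63993 in PBS libraries. Markers of other cells were present too. Of 12 macrophage and dendritic cell markers, 9 averaged under 10 normalized counts, with C1qc at 1.80, 1.54 and 1.69 after IL-33, against 1.55, 0 and 0 after PBS. Their sum was 4047 to 5013 in IL-33 libraries and 1488 to 1788.5 in PBS libraries. Csf1r, which was higher (log2 fold change 1.40, SE 0.16), made up nearly all of it, at 3980.3, 4062 and 4934 after IL-33, against 1732, 1461 and 1718 after PBS. The sums were 2203 to 2758 in IL-33 libraries and 2839 to 3383 in PBS libraries for 11 neutrophil markers, and 3169 to 4625 in IL-33 libraries and 2255 to 3945 in PBS libraries for 11 mast cell and basophil markers, mainly Hdc. Of the neutrophil markers Mpo, S100a9 and Cxcr2 were lower and 0 were higher. Of the mast cell and basophil markers Cpa3 (log2 fold change −2.81, SE 0.40) and Ms4a2 (log2 fold change −1.81, SE 0.51) were lower, 0 were higher and Hdc was not called (log2 fold change 0.81, SE 0.34). For 9 erythroid and megakaryocyte markers, mainly Itga2b, the sums were 2371 to 3030 in IL-33 libraries and 2487 to 3315 in PBS libraries, and for 8 lymphoid markers they were 45.8 to 73.7 in IL-33 libraries and 66.9 to 83.1 in PBS libraries. Of these, Pf4 was higher (log2 fold change 1.45, SE 0.47) and 0 were lower. Mcpt4, Hbb-b1, Hba-a1, Hba-a2, Ncr1 and Gata3 were listed at 0 in every library. The part of these markers in the results was not tested. For the Rn45s share, values with it as a covariate and with Rn45s left out of the totals are given with the calls.

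Most of the genes tested were higher after IL-33. Of the 36, 23 were higher, 1 was lower and 12 were not called (limma on log2 of the normalized count plus 1, adjusted p under 0.05 over all 10544 genes tested). Across all genes tested, 31.9% were called, 17.4% higher and 14.4% lower. The median log2 fold change, IL-33 over PBS, was 0.92 for the 36 genes, against −0.03 for all genes tested. In 17 of the 36 the increase was at least 2-fold, against 10.9% of all genes, and in 0 the decrease, against 9.75%. In 25 of the 36 every IL-33 library lay above every PBS library, and in 3 every IL-33 library lay below, against 25.5% and 24.7% of all genes (50.2% for either). The medians were 1.22, 0.95 and 0.88 in IL-33 libraries 1 to 3. In bulk RNA, fewer cells of a type and less RNA per cell cannot be told apart.

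**Figure D1:**
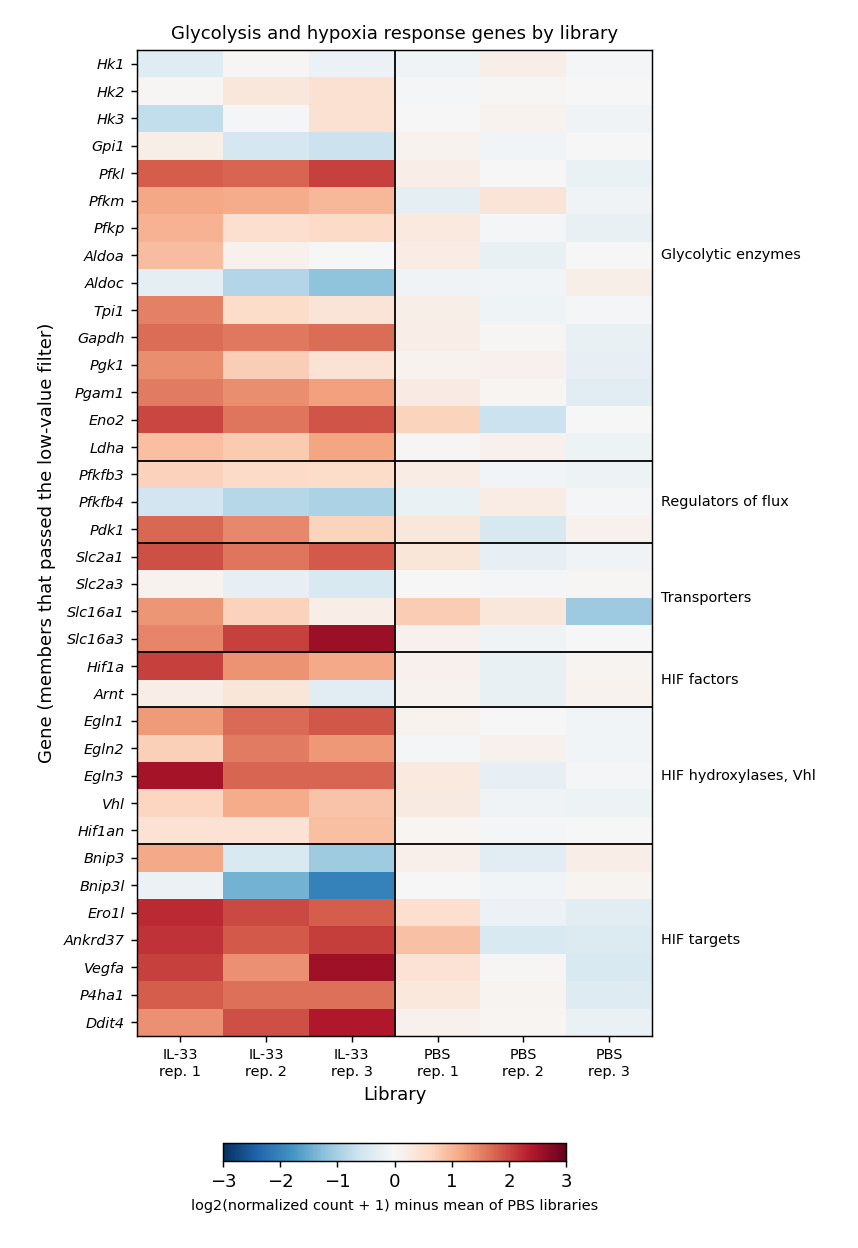
Each cell shows log2(normalized count + 1) of 1 gene in 1 library, as scaled by the authors, minus the mean of the 3 PBS libraries; rows are the 36 genes that passed the filter, grouped by role, and columns are IL-33 libraries 1 to 3 and then PBS libraries 1 to 3. Red is above and blue below the PBS mean. The Egln3, Ero1l, Ankrd37 and P4ha1 rows are red in all 3 IL-33 libraries, while among the IL-33 libraries Bnip3 is red in library 1 only.

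These calls rest on the authors' scaling of the libraries, and some were lost when 1 library was left out. Scaling to equal totals moved the median of all genes to −1.08, and scaling to equal totals without Rn45s moved it to −0.46. The median of the 36 genes lay 0.95 above that of all genes under each of these scalings, as it must when a scaling moves all genes alike. With equal totals, 2 of the genes were higher (Slc16a3 and Ddit4) and 8 lower, and without Rn45s 16 were higher and 6 lower. Of all genes, 2.38% were higher and 50.5% lower with equal totals, and 8.91% and 34.0% without Rn45s. With the Rn45s share as a covariate, 19 of the 36 were higher and 0 lower. Of the 23 higher calls 17 were shared with that fit, and those of Egln2, Eno2, Hif1an, Pfkfb3, Pfkm and Vhl were lost. Of all genes, 8.67% were higher and 6.09% lower with that covariate. With IL-33 library 1 alone, 35 of the genes could be tested, with a median log2 fold change of 1.16, against −0.0024 for all genes. The spread in that fit comes from the 3 PBS libraries only, and the lone IL-33 library is assumed to vary as they do. Of the 24 called genes, 15 were called without each library in turn. The count of higher genes was 15 without PBS library 3, and it was 16 to 25 without any other library. The count of lower genes was 6 without IL-33 library 1 and 0 without any other library. Without IL-33 library 1, 28.02% of all genes were higher and 28.40% lower, and without PBS library 3 6.74% and 3.08%. Counts given below for single lists under these choices are to be read against the shares of all genes. In the 22 alternatives none of the 24 gained a call of the other sign. Over all genes, 54.7% of the calls were higher, against 4.50% with equal totals and 20.8% without Rn45s. A bare number in brackets after a library left out, or after a scaling, is the log2 fold change under that choice.

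**Figure D2:**
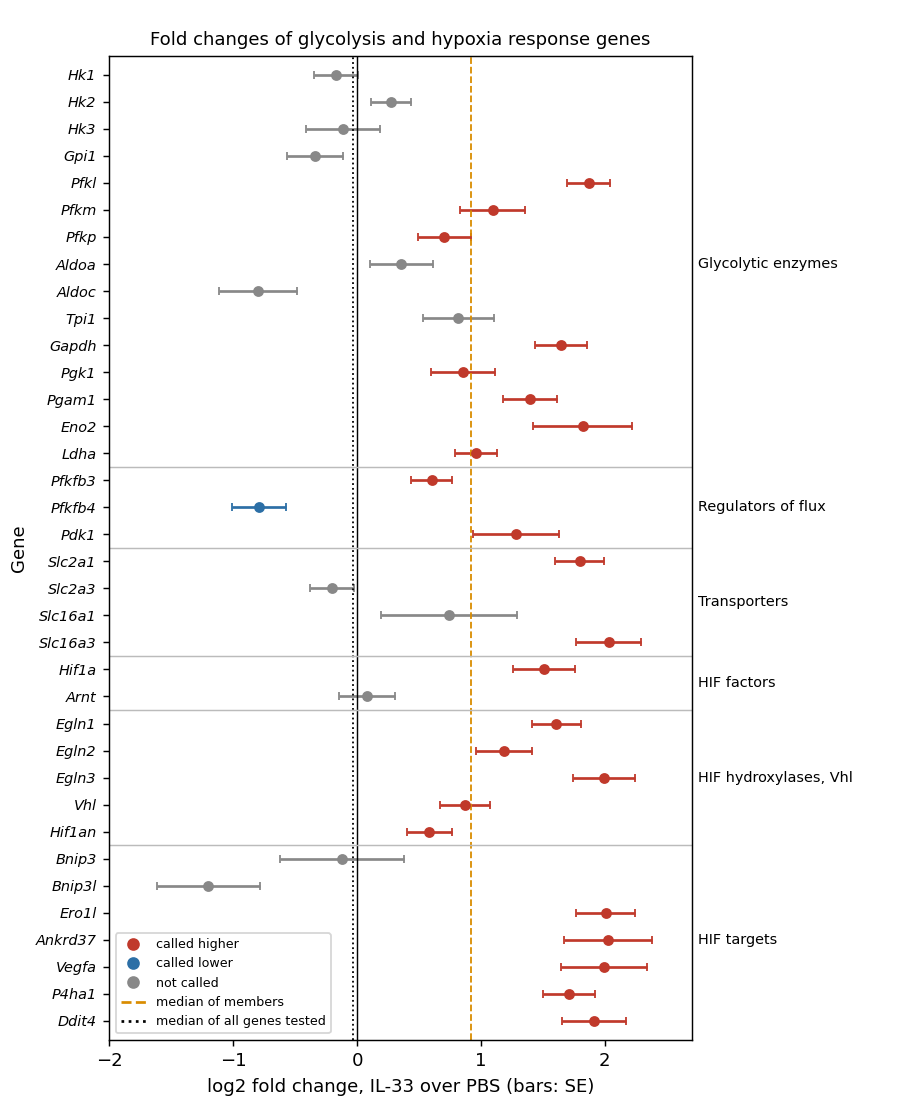
Points are log2 fold changes, IL-33 over PBS, with their standard errors, for the 36 genes tested as scaled by the authors, ordered by role. Red points were called higher, the blue point lower, and grey points were not called. The dashed line is the median of these genes (0.92) and the dotted line that of all genes tested (−0.03). All 5 genes of the HIF hydroxylases and Vhl lie to the right of 0, which for Vhl and Hif1an was not so with equal totals.

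Of the 4 glucose and lactate transporters tested, Slc2a1 and Slc16a3 rose and 2 were not called. Slc2a1 (GLUT1, chromosome 4, 119108711 to 119137983), the widely expressed glucose transporter, had 3880.5, 3067 and 3644 normalized counts across IL-33 libraries 1 to 3, against 1298, 849 and 939 across PBS libraries 1 to 3. Slc2a1 rose in all 3 IL-33 libraries, with no overlap between the groups (log2 fold change 1.80, SE 0.20, limma adjusted p = 8.42e-04). Slc2a3 (GLUT3, chromosome 6, 122727809 to 122801640), a glucose transporter of high affinity, had 2280.1, 1806 and 1546 normalized counts across IL-33 libraries 1 to 3, against 2159.7, 2043 and 2188 across PBS libraries 1 to 3. Its groups overlapped and it was not called (log2 fold change −0.20, SE 0.18, limma adjusted p = 0.404), although it was lower without IL-33 library 1 (−0.35). Slc16a3 (MCT4, chromosome 11, 120948480 to 120960868), which exports lactate, had 4855, 7291 and 10332 normalized counts across IL-33 libraries 1 to 3, against 1912, 1623 and 1721 across PBS libraries 1 to 3. It rose to 7493 ± 2744 in IL-33 libraries, against 1752 ± 147 in PBS libraries (SD, n = 3 each; log2 fold change 2.03, SE 0.26, limma adjusted p = 0.00155), and the IL-33 values differed by more than 2-fold among themselves. Slc16a1 (MCT1), a lactate transporter that works in both directions, was near the lower limit of measurement, with 30, 11 and 7 reads after IL-33 and 23, 18 and 6 after PBS, and was not called (log2 fold change 0.74, SE 0.55). Slc2a1 and Slc16a3 were called without each library in turn, and with equal totals Slc16a3 was called higher (0.99) and Slc2a1 was not called (0.75).

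The balance between the 2 glucose transporters does not depend on how libraries are scaled. Per kilobase of annotated exon, Slc2a1 held 77.9, 77.8 and 82.97% across IL-33 libraries 1 to 3 and 55.4, 46.2 and 47.00% across PBS libraries 1 to 3 of the summed level of Slc2a1 and Slc2a3. The groups did not overlap, and the mean share was 79.6 ± 2.96% in IL-33 libraries and 49.5 ± 5.09% in PBS libraries (SD, n = 3 each). The exact two-sided permutation p was 0.1, the smallest that 3 libraries against 3 allow. Shares of 23 genes in 10 families were compared, and those with an exact p of 0.1 had a Benjamini-Hochberg adjusted p of 0.164. None could pass a threshold of 0.05 in this design.

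**Figure D3:**
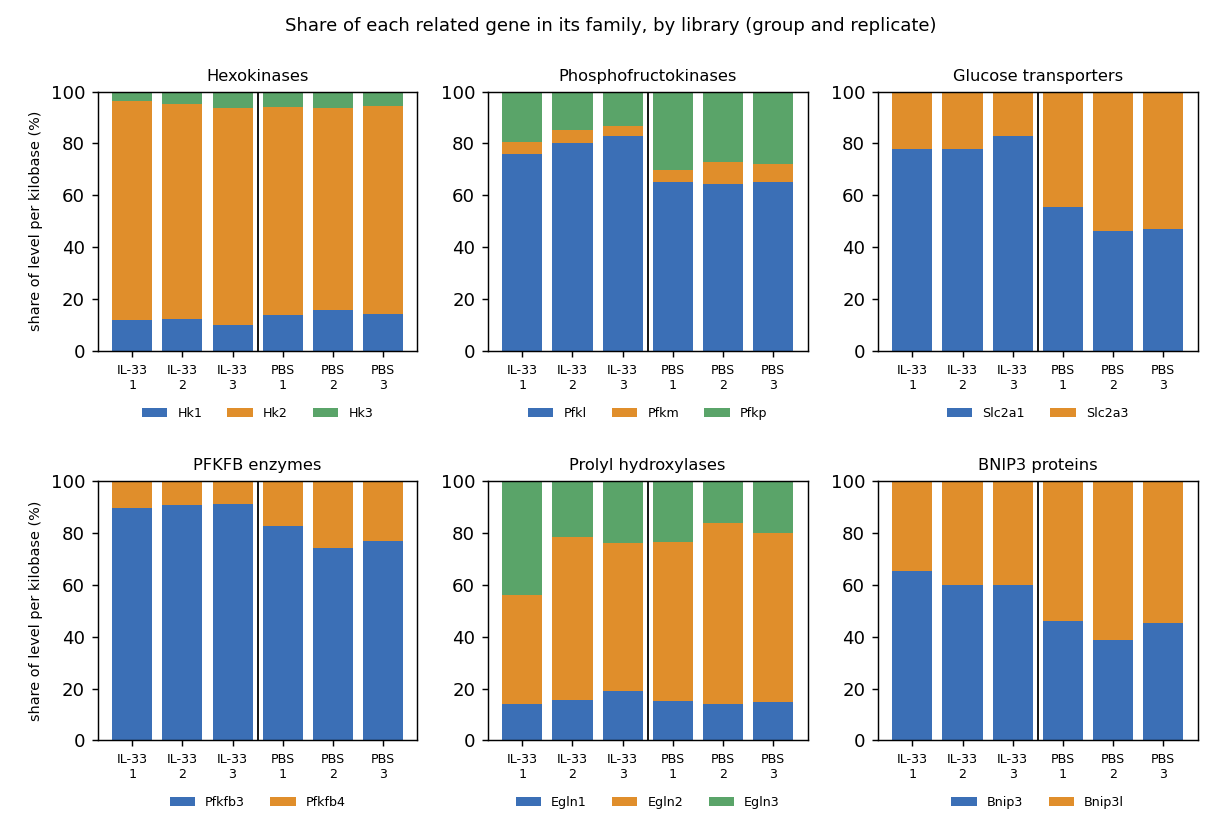
Stacked bars give the share of each gene in the summed level per kilobase of its family, in percent, in each of the 3 IL-33 libraries and then the 3 PBS libraries. Slc2a1 holds 77.8% to 83.0% of its pair in IL-33 libraries and 46.2% to 55.4% in PBS libraries, and Pfkl and Pfkfb3 also hold more of their families in every IL-33 library.

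Promoter sequence is shown for 5 of these genes that differ in how they moved: Slc2a1, Slc16a3, Egln3 and Ankrd37, which rose, and Hk2, which was not called. Whether HIF acts in these stretches was not tested. Each run is the 250 bases before the RefSeq start, 5′ to 3′ along the gene, on GRCm38.p6. That of Slc2a1 leaves out the last 31 bases, which GENCODE puts in its first exon. GENCODE exons reach 34 bases into the full window of Slc2a1, 14 into that of Slc16a3 and 17 into that of Ankrd37. The last core of Slc2a1 therefore runs into an exon. The last cores of Slc16a3, at −14, and of Ankrd37, at −6, lie within one. In GENCODE, Slc16a3 begins further upstream, at 120948480, and so does Ankrd37, at 46005707. Both of these stretches therefore lie within the annotated span of their gene. Capitals mark the core of the hypoxia response element, the letters ACGTG or GCGTG on either strand, which HIF is known to bind. The stretches are chr4:119108495-119108713 (forward strand) for Slc2a1, chr11:120948817-120949066 (forward) for Slc16a3, chr12:54203875-54204124 (reverse) for Egln3, chr8:45999851-46000100 (reverse) for Ankrd37 and chr6:82774455-82774704 (reverse) for Hk2.
Slc2a1: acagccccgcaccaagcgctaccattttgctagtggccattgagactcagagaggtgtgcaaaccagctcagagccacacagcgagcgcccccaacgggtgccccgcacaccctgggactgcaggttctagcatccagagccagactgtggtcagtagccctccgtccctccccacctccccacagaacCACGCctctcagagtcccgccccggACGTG
Slc16a3: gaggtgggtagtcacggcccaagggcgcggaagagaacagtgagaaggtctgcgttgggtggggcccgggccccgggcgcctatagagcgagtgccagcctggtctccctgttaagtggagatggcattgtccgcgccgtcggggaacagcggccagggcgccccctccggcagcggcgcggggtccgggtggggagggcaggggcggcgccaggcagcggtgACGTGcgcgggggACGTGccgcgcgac
Egln3: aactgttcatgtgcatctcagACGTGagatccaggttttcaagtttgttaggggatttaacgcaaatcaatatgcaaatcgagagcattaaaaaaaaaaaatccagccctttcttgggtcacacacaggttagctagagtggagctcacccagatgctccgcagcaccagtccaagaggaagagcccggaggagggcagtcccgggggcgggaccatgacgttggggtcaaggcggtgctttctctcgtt
Ankrd37: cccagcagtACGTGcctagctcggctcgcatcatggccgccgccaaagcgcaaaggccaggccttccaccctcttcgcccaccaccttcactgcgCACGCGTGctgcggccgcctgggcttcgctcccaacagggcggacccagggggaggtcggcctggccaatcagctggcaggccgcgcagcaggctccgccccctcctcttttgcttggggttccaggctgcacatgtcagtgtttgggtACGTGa
Hk2: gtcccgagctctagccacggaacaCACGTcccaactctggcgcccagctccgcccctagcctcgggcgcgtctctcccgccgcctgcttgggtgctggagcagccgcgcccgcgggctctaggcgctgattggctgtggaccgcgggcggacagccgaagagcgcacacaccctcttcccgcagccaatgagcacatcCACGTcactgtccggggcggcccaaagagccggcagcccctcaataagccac

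Each of these 5 stretches held at least 1 core, and Ankrd37 held 4, of which 2 overlap. Counting the first base of a match back from the start, the cores of Slc16a3 began at −27 and −14, those of Slc2a1 at −61 and −36, those of Hk2 at −226 and −52 and that of Egln3 at −229. RefSeq windows were found for 36 of the 39 genes, and 31 of the 36 held a core in at least 1 window. This was so for 20 of 23 genes called higher, for the 1 called lower and for 8 of 10 not called. Counted in the same way by gene, it was so for 62.5% of all tested genes with a window and 41.5% of all genes with one. The motif is common: 38.6% of all 32851 RefSeq windows held it. Among the 50 windows of the 36 genes the share was 80%, against 56.6% of the windows of all genes tested, and the median GC content was 60.4% and 60%. The list was drawn up to hold HIF targets among others, so a higher share than among all genes tells nothing about IL-33. The palindrome CACGTG, which also is the E-box of other factors and counts as a match on both strands, lay in 6 of these 50 windows (12%), in 8.55% of the windows of all genes tested and in 6.02% of all windows. The windows of Vhl, Hif1an, Eno2, Tpi1 and Gpi1 held no core, which says only that these letters are not in that stretch.

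At the entry of glucose into glycolysis, hexokinase transcripts were not called. Hk2 (chromosome 6, 82725025 to 82774454), the inducible hexokinase, had 3355, 4114 and 4493 normalized counts across IL-33 libraries 1 to 3, against 3197, 3337 and 3269 across PBS libraries 1 to 3. Its IL-33 libraries lay above the PBS libraries by a small margin (log2 fold change 0.28, SE 0.16, limma adjusted p = 0.21), and it was not called. It was called higher without IL-33 library 1 (0.40), and lower with equal totals (−0.76), where 50.5% of all genes were lower. Hk1, the housekeeping hexokinase (log2 fold change −0.17, SE 0.17), and Hk3, the hexokinase of myeloid cells (log2 fold change −0.11, SE 0.30), overlapped between the groups. Hk2 held 83.7 ± 0.829% of the hexokinase level per kilobase in IL-33 libraries and 79.3 ± 1.30% in PBS libraries (SD, n = 3 each). Gpi1, which converts glucose 6-phosphate to fructose 6-phosphate, had 3832, 2348 and 2163 normalized counts across IL-33 libraries 1 to 3, against 3635, 3207 and 3360.2 across PBS libraries 1 to 3. Its groups overlapped and it was not called (log2 fold change −0.34, SE 0.23), although it was lower without IL-33 library 1 (−0.59). In GENCODE, 11.5% of its exon sequence is shared with an overlapping gene.

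The phosphofructokinases, which carry out the committed step of glycolysis, were all 3 higher as scaled by the authors, and none was called with equal totals. Pfkl (chromosome 10, 77986947 to 78010083), the liver-type subunit, had 2214, 2132 and 2624 normalized counts across IL-33 libraries 1 to 3, against 728, 631 and 549 across PBS libraries 1 to 3. It rose to 2323 ± 263 in IL-33 libraries, against 636 ± 89.7 in PBS libraries (SD, n = 3 each; log2 fold change 1.87, SE 0.17, limma adjusted p = 3.90e-04), and was called without each library in turn. Pfkm, the muscle-type subunit, was far lower, at 70.1, 67.7 and 62.7 after IL-33, against 24.9, 40.7 and 28.7 after PBS, and also rose (log2 fold change 1.09, SE 0.26). Pfkp, the platelet-type subunit, had 1142, 784 and 836 after IL-33, against 680.3, 533 and 475 after PBS (log2 fold change 0.70, SE 0.21). Pfkm was not called without IL-33 library 2 (1.08), PBS library 1 (0.95) or PBS library 3 (1.04). Pfkp was not called without IL-33 library 2 (0.81), PBS library 1 (0.85), PBS library 2 (0.67) or PBS library 3 (0.59), and its fold change was −0.33 with equal totals. Per kilobase, Pfkl held 75.8, 80.2 and 82.9% across IL-33 libraries 1 to 3 and 65.2, 64.5 and 65.1% across PBS libraries 1 to 3 of the phosphofructokinase level, without overlap (exact permutation p = 0.1, the smallest possible). Pfkp held 15.8 ± 3.29% in IL-33 libraries and 28.5 ± 1.63% in PBS libraries (SD, n = 3 each), also without overlap.

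The enzymes that make and remove fructose 2,6-bisphosphate, the strongest activator of phosphofructokinase, moved apart as scaled by the authors. With equal totals Pfkfb4 was lower (−1.82) and Pfkfb3 was not called. In that fit the median of all genes was −1.08, and 50.5% of all genes were lower. Pfkfb3 (chromosome 2, 11471433 to 11554077), which mainly makes it, had 1234, 1143 and 1127 normalized counts across IL-33 libraries 1 to 3, against 901, 728 and 690.5 across PBS libraries 1 to 3. Pfkfb4 (chromosome 9, 108991778 to 109032228), a related enzyme that can also remove it, had 93.5, 76.9 and 71.2 normalized counts across IL-33 libraries 1 to 3, against 122, 163 and 136 across PBS libraries 1 to 3. Every IL-33 library was above the PBS libraries for Pfkfb3 (log2 fold change 0.60, SE 0.17, limma adjusted p = 0.0275) and below them for Pfkfb4 (log2 fold change −0.79, SE 0.21, limma adjusted p = 0.0266). As scaled by the authors, Pfkfb4 was the only one of the 39 genes called lower. The change of each was under 2-fold. Pfkfb3 was not called without IL-33 library 2 (0.62), PBS library 2 (0.56) or PBS library 3 (0.53) or with equal totals (−0.44). Pfkfb4 was not called without IL-33 library 2 (−0.76), IL-33 library 3 (−0.71), PBS library 1 (−0.89), PBS library 2 (−0.68) or PBS library 3 (−0.81). Nor was Pfkfb4 called with a replicate block or with the Rn45s share as a covariate. The share of Pfkfb3 in the pair, which is free of the scaling, was 89.5, 90.5 and 91.1% across IL-33 libraries 1 to 3 and 82.7, 74.2 and 76.7% across PBS libraries 1 to 3 per kilobase. Pdk1, the kinase that shuts off pyruvate dehydrogenase and so keeps pyruvate out of mitochondria, had 113, 93.8 and 54.2 normalized counts across IL-33 libraries 1 to 3, against 42.7, 24.01 and 37.04 across PBS libraries 1 to 3. Pdk1 rose (log2 fold change 1.28, SE 0.35, limma adjusted p = 0.026), and was not called without IL-33 library 2 (1.20), PBS library 1 (1.45), PBS library 2 (1.05) or PBS library 3 (1.35).

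In the lower part of glycolysis, Ldha, Pgam1, Gapdh, Pgk1 and Eno2 rose as scaled by the authors, and none of them was called with equal totals. Their lowest log2 fold changes over the alternatives were 0.85 for Eno2, 0.62 for Gapdh, 0.36 for Pgam1, −0.08 for Ldha and −0.18 for Pgk1. Ldha (chromosome 7, 46841475 to 46855627), which makes lactate, had 3403, 3149.7 and 4157 normalized counts across IL-33 libraries 1 to 3, against 1861, 1981 and 1643 across PBS libraries 1 to 3. The groups did not overlap (log2 fold change 0.96, SE 0.17, limma adjusted p = 0.00566), and Ldha was called without each library in turn. Its fold change was −0.08 with equal totals, and it was not called with quantile normalization. Pgam1 (chromosome 19, 41911923 to 41918660), a phosphoglycerate mutase, had 259, 231 and 203 after IL-33, against 103, 90.2 and 69.9 after PBS (log2 fold change 1.40, SE 0.22, limma adjusted p = 0.00344). Gapdh (chromosome 6, 125161715 to 125166467), the enzyme that yields NADH, had 161, 151 and 159 after IL-33, against 56.7, 50.9 and 41.9 after PBS (log2 fold change 1.65, SE 0.21, limma adjusted p = 0.00142). Both were above the PBS range in every IL-33 library and called without each library in turn. Of the 15 glycolytic enzymes tested, 8 were higher and 0 lower, 7 had no call, and the median log2 fold change was 0.82. The count was 0 higher and 5 lower with equal totals, where 2.38% of all genes were higher and 50.5% lower. With equal totals without Rn45s the count was 5 higher and 3 lower, against 8.91% and 34.0% of all genes. It was 4 and 0 without PBS library 3, 5 and 0 without IL-33 library 2, PBS library 1 or PBS library 2, and 10 and 2 without IL-33 library 1.

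Pgk1, which makes ATP from 1,3-bisphosphoglycerate, had 1448, 921 and 747 normalized counts across IL-33 libraries 1 to 3, against 593, 606 and 466 across PBS libraries 1 to 3. The groups did not overlap (log2 fold change 0.86, SE 0.26, limma adjusted p = 0.0364), but Pgk1 was not called without IL-33 library 2 (0.92), PBS library 1 (0.91), PBS library 2 (0.93) or PBS library 3 (0.74), and its fold change was −0.18 with equal totals. Tpi1, the triosephosphate isomerase, had 1656, 852 and 763 after IL-33, against 659, 529.7 and 562 after PBS. It was not called (log2 fold change 0.82, SE 0.29, limma adjusted p = 0.0603), although its IL-33 libraries lay above the PBS libraries and it was called higher without IL-33 library 1 (0.47) or IL-33 library 3 (1.03). Aldoa (chromosome 7, 126795234 to 126800751), the main aldolase, had 16376, 9571 and 8774 normalized counts across IL-33 libraries 1 to 3, against 10144, 7421 and 8693 across PBS libraries 1 to 3. IL-33 library 1 stood well above the others, and the groups overlapped. Aldoa was not called (log2 fold change 0.36, SE 0.25), nor was it without IL-33 library 1 (0.08). It was called higher with the Rn45s share as a covariate. Aldoc, the brain-type aldolase, had 37, 14 and 10 reads after IL-33 and 49, 53 and 66 after PBS (log2 fold change −0.80, SE 0.31), and was called lower without IL-33 library 1 (−1.05). Eno2, the neuronal enolase, had 41, 18 and 20 reads after IL-33 and 18, 7 and 12 after PBS. Eno2 rose (log2 fold change 1.82, SE 0.40, limma adjusted p = 0.0125), and was not called without PBS library 2 (1.50) or PBS library 3 (1.81). Tpi1, Pgk1, Gpi1 and Aldoa were each highest in IL-33 library 1.

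Several of these enzymes have near-identical copies in the genome, and their levels are uncertain. Eno1, the main enolase of most cells, was listed at 0 in every library. Of the 50-base stretches of its longest GENCODE transcript, 72.2% also occur in transcripts of 9 other genes elsewhere. The same share was 67.96% for Pgk1 (in 5 genes), 48.9% for Bnip3 (in 5), 41.5% for Pgam1 (in 4), 27.2% for Gapdh (in 217), 23.4% for Bnip3l (in 1), 16.6% for Ldha (in 14), 13.5% for Aldoa (in 6), 10.2% for Gpi1 (in 1) and 7.51% for Tpi1 (in 2). Per kilobase, Gapdh stood at 37.98 normalized counts in IL-33 libraries and 12.1 in PBS libraries, and Aldoa, which acts just before it in the pathway, at 3976 in IL-33 libraries and 3007 in PBS libraries. Whether reads of such genes were left uncounted was not tested. The highest levels per kilobase among the 39 genes were those of Aldoa, of Ero1l, at 3975 in IL-33 libraries and 1013 in PBS libraries, and of Ddit4, at 2427 in IL-33 libraries and 622 in PBS libraries.

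Among the HIF factors, the alpha subunit rose and its partner did not pass the test. Hif1a (chromosome 12, 73901375 to 73947530) had 3045, 1859 and 1620.2 normalized counts across IL-33 libraries 1 to 3, against 808, 631 and 779.96 across PBS libraries 1 to 3. The groups did not overlap, and IL-33 library 1 was the highest. Hif1a averaged 2175 ± 763 in IL-33 libraries and 739.7 ± 95.4 in PBS libraries (SD, n = 3 each; log2 fold change 1.51, SE 0.25, limma adjusted p = 0.00448), and was called without each library in turn. In GENCODE, 8.11% of its exonic bases overlap exons of other genes. Arnt, the shared partner of the alpha subunits, had 320.1, 354 and 222 normalized counts across IL-33 libraries 1 to 3, against 299.8, 237 and 298 across PBS libraries 1 to 3, with overlapping groups (log2 fold change 0.08, SE 0.22, limma adjusted p = 0.794). Epas1, which encodes HIF-2 alpha, had 1, 0 and 1 reads after IL-33 and 8, 2 and 4 after PBS and was not tested. Hif1a held 99.95 ± 0.0568% of the level per kilobase of both alpha subunits in IL-33 libraries and 99.5 ± 0.293% in PBS libraries (SD, n = 3 each).

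The genes that restrain HIF are the 3 EGLN prolyl hydroxylases, Vhl and Hif1an. All 5 were higher as scaled by the authors, and none was called with equal totals. Egln3 (PHD3, chromosome 12, 54178981 to 54203860) had 1589.6, 938 and 942 normalized counts across IL-33 libraries 1 to 3, against 342, 238 and 270.5 across PBS libraries 1 to 3. Egln1 (PHD2, chromosome 8, 124908587 to 124949324), the main oxygen sensor of most cells, had 676, 919.7 and 1015 normalized counts across IL-33 libraries 1 to 3, against 299.8, 276 and 266 across PBS libraries 1 to 3. Egln2 (PHD1, chromosome 7, 27158658 to 27166802) had 1590.5, 2857 and 2379.5 normalized counts across IL-33 libraries 1 to 3, against 938, 1065 and 918 across PBS libraries 1 to 3. No IL-33 library overlapped the PBS range for any of them. Egln3 was highest in IL-33 library 1, and Egln1 and Egln2 were lowest there among the IL-33 libraries. The log2 fold changes were 1.99 for Egln3 (SE 0.25, limma adjusted p = 0.00145), 1.61 for Egln1 (SE 0.20, limma adjusted p = 0.00123) and 1.19 for Egln2 (SE 0.23, limma adjusted p = 0.00771). All 3 were called without each library in turn.

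Vhl, the substrate receptor of the ubiquitin ligase for HIF alpha, had 411, 575 and 479.6 normalized counts across IL-33 libraries 1 to 3, against 318, 244 and 237 across PBS libraries 1 to 3 (log2 fold change 0.87, SE 0.20, limma adjusted p = 0.0156). Hif1an, which adds a hydroxyl group to an asparagine of HIF alpha, had 783, 786 and 1086 normalized counts across IL-33 libraries 1 to 3, against 613, 562 and 579 across PBS libraries 1 to 3 (log2 fold change 0.58, SE 0.18, limma adjusted p = 0.042). Both changes were under 2-fold, with no overlap between the groups. Vhl was not called without IL-33 library 2 (0.75), PBS library 2 (0.82) or PBS library 3 (0.80), and Hif1an was not called without IL-33 library 2 (0.66), IL-33 library 3 (0.43), PBS library 1 (0.62), PBS library 2 (0.55) or PBS library 3 (0.58). With equal totals the fold changes were −0.17 for Vhl and −0.46 for Hif1an, and none of the 5 genes was called, higher or lower. With equal totals without Rn45s 3 were higher, and with the Rn45s share as a covariate 2. It was 3 higher without IL-33 library 2, PBS library 2 or PBS library 3. The shares of all genes called higher were 8.91% without Rn45s and 8.67% with the covariate. They were 8.43% without IL-33 library 2, 7.60% without PBS library 2 and 6.74% without PBS library 3. Per kilobase, Egln2 held 41.97, 62.7 and 57.2% across IL-33 libraries 1 to 3 and 61.2, 69.6 and 65.1% across PBS libraries 1 to 3 of the 3 hydroxylase transcripts. Egln3 held 44.1, 21.6 and 23.8% across IL-33 libraries 1 to 3 and 23.5, 16.3 and 20.2% across PBS libraries 1 to 3, and was above Egln2 in IL-33 library 1. The groups overlapped for both.

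**Figure D4:**
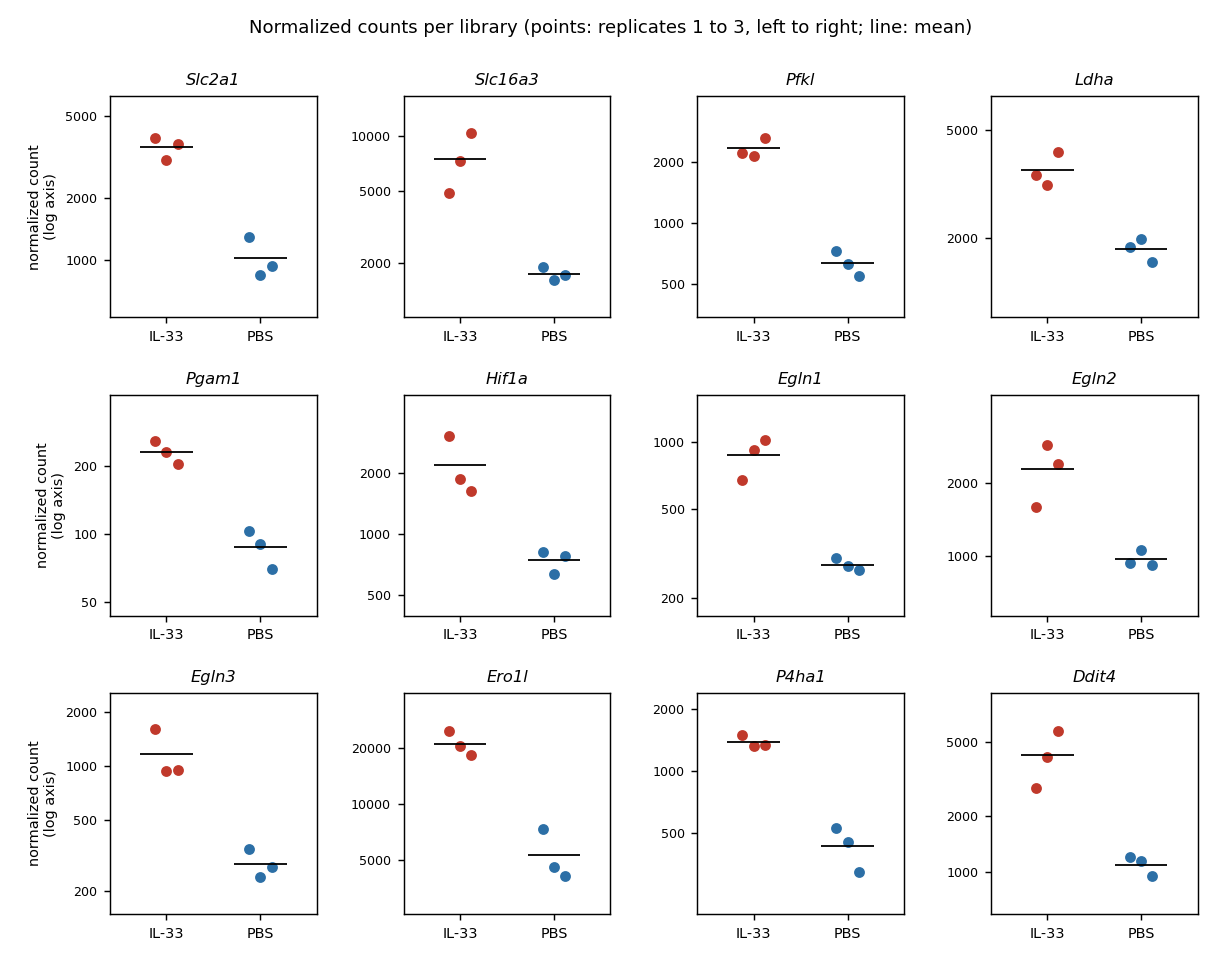
Points are normalized counts per library on a log axis, replicates 1 to 3 from left to right, for 12 of the genes called higher, with IL-33 at the left, PBS at the right and the mean as a line. In every panel the 3 IL-33 points lie above the 3 PBS points; the IL-33 points of Egln3 run between 938 and 1590, against 238 to 342.5 in PBS libraries.

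Of the 7 HIF targets outside glycolysis that were tested, 5 rose, each by more than 2-fold, 0 fell and 2 were not called (median 1.91). Ero1l, the table's name for Ero1a (chromosome 14, 45283087 to 45318771), encodes the oxidase that forms disulfide bonds in the endoplasmic reticulum. It had 24513, 20351 and 18165 normalized counts across IL-33 libraries 1 to 3, against 7330.2, 4608 and 4123 across PBS libraries 1 to 3. Ero1l rose to 21009.7 ± 3225 in IL-33 libraries, against 5354 ± 1729 in PBS libraries (SD, n = 3 each; log2 fold change 2.01, SE 0.24, limma adjusted p = 0.00113). Ddit4 (REDD1, chromosome 10, 59949669 to 59951834), an inhibitor of mTORC1, had 2815, 4177 and 5788 normalized counts across IL-33 libraries 1 to 3, against 1196, 1134 and 944 across PBS libraries 1 to 3 (log2 fold change 1.91, SE 0.26, limma adjusted p = 0.00195). P4ha1 (chromosome 10, 59323296 to 59373304), the catalytic subunit of collagen prolyl 4-hydroxylase, had 1501, 1324 and 1346 normalized counts across IL-33 libraries 1 to 3, against 528, 449 and 321 across PBS libraries 1 to 3 (log2 fold change 1.71, SE 0.21, limma adjusted p = 0.00125). In these 3 genes every IL-33 library lay above the PBS range, and each was called without each library in turn.

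Vegfa (chromosome 17, 46016993 to 46032369), the main growth factor of blood vessels, had 319, 197 and 449 normalized counts across IL-33 libraries 1 to 3, against 103, 77.1 and 54.5 across PBS libraries 1 to 3. Vegfa rose to 322 ± 126 in IL-33 libraries, against 78.3 ± 24.4 in PBS libraries (SD, n = 3 each; log2 fold change 1.99, SE 0.34, limma adjusted p = 0.00532). Ankrd37 (chromosome 8, 45996902 to 46005707), an ankyrin repeat gene that HIF-1 switches on in other cells, had 276, 223 and 259 normalized counts across IL-33 libraries 1 to 3, against 113, 44.4 and 45.4 across PBS libraries 1 to 3 (log2 fold change 2.03, SE 0.35, limma adjusted p = 0.00563). PBS library 1 was the highest of the PBS libraries for both, and the groups did not overlap. Both were called without each library in turn. Of the exonic bases of Ankrd37, 26.4% overlap exons of Lrp2bp or Ufsp2, and reads there may not be told apart. P4ha2, the sister gene of P4ha1, had 1, 0 and 1 reads after IL-33 and 0, 0 and 0 after PBS and was not tested.

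Bnip3 and Bnip3l, which mark mitochondria for autophagy, were the 2 targets not called. Bnip3 had 274, 90.7 and 59.3 normalized counts across IL-33 libraries 1 to 3, against 137, 98.2 and 143 across PBS libraries 1 to 3. IL-33 library 1 lay above the PBS range and libraries 2 and 3 lay below it, so the groups overlapped (log2 fold change −0.12, SE 0.50, limma adjusted p = 0.863). Bnip3 was called lower without IL-33 library 1 (−0.75) and higher with that library alone (1.13), where only the PBS libraries give the spread. Bnip3l had 247, 103 and 67.8 normalized counts across IL-33 libraries 1 to 3, against 273, 264 and 296 across PBS libraries 1 to 3. All IL-33 libraries lay below the PBS range, but Bnip3l was not called (log2 fold change −1.20, SE 0.41, limma adjusted p = 0.0562), and it was called lower without IL-33 library 1 (−1.72). The share of Bnip3 in the pair per kilobase, free of the scaling, was 65.4, 60.01 and 59.9% across IL-33 libraries 1 to 3 and 46.1, 38.8 and 45.1% across PBS libraries 1 to 3, without overlap. In GENCODE, 22.3% of the exonic bases of Bnip3 overlap exons of another gene. Of all 7 targets, 5 were higher and 1 lower with equal totals without Rn45s, and 1 and 1 with equal totals. Without IL-33 library 1 the counts were 5 and 2.

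Of 93 other genes of these pathways that could be tested, 20 were higher and 15 lower (21.5% and 16.1%, with a median of −0.01), close to the shares over all genes. Among 22 further genes of glycolysis and pyruvate use, 3 were higher and 3 lower (median −0.30). Slc2a6 (GLUT6), a glucose transporter of intracellular membranes, had 2639.8, 1987 and 2624 normalized counts across IL-33 libraries 1 to 3, against 292, 298 and 275 across PBS libraries 1 to 3 and rose (log2 fold change 3.05, SE 0.17, limma adjusted p = 5.02e-05). It was called without each library in turn. Pkm, the pyruvate kinase of most tissues, had 15129, 12505 and 17311 after IL-33, against 9773, 8812 and 9290.3 after PBS (log2 fold change 0.68, SE 0.17, limma adjusted p = 0.0199). It was not called without PBS library 1 (0.71), PBS library 2 (0.64) or PBS library 3 (0.68). Pdk3, a sister kinase of Pdk1, fell (log2 fold change −0.77, SE 0.21), as did Pfkfb2, a sister of Pfkfb3 (log2 fold change −0.68, SE 0.20). Pdk3 was not called without IL-33 library 2 (−0.74), PBS library 1 (−0.85), PBS library 2 (−0.75) or PBS library 3 (−0.71), and Pfkfb2 was not called without IL-33 library 3 (−0.57), PBS library 1 (−0.65), PBS library 2 (−0.69) or PBS library 3 (−0.69). With equal totals, 24 of the list passed the filter, 1 higher and 13 lower, and 24 did without Rn45s, 1 higher and 9 lower. It was 1 and 0 without PBS library 2 or PBS library 3, 1 and 1 without PBS library 1, and 4 and 5 without IL-33 library 1.

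Among 28 genes of the pentose phosphate pathway and of glycogen, 4 were higher and 7 lower (median −0.06), and the members went both ways. Pygl, the glycogen phosphorylase of liver and leukocytes, had 1393, 1209 and 1174 normalized counts across IL-33 libraries 1 to 3, against 2662, 3127 and 3142 across PBS libraries 1 to 3 and fell (log2 fold change −1.24, SE 0.16, limma adjusted p = 0.00144). Gyg, which primes glycogen (log2 fold change −1.82, SE 0.32), Phkb, a subunit of phosphorylase kinase (log2 fold change −1.44, SE 0.30), and Rpia, an isomerase of the pentose phosphate pathway (log2 fold change −1.48, SE 0.22), fell as well. Genes that rose were Pgd, a dehydrogenase of the pentose phosphate pathway, with 11949.9, 10362 and 11684 after IL-33, against 7056, 6135 and 6136 after PBS (log2 fold change 0.82, SE 0.15, limma adjusted p = 0.00678), the glycogen branching enzyme Gbe1 (log2 fold change 0.97, SE 0.21), the glycogen synthase Gys1 (log2 fold change 0.73, SE 0.22) and Ppp1r3d, which brings a phosphatase to glycogen (log2 fold change 0.88, SE 0.19). Pygl, Gyg and Rpia were called without each library in turn. Phkb was not called without PBS library 2 (−1.38) or PBS library 3 (−1.45), Pgd without PBS library 3 (0.78), Ppp1r3d without PBS library 2 (0.87) or PBS library 3 (0.83), Gbe1 without IL-33 library 2 (0.89), PBS library 2 (0.95) or PBS library 3 (0.83), and Gys1 without IL-33 library 2 (0.83), IL-33 library 3 (0.57), PBS library 1 (0.66), PBS library 2 (0.87) or PBS library 3 (0.65). With equal totals 0 of the 28 were higher and 14 lower, and without Rn45s 0 and 12, shares to be read against those of all genes at these scalings. They were 7 and 9 without IL-33 library 1, 2 and 5 without IL-33 library 2, 1 and 3 without PBS library 2, and 0 and 3 without PBS library 3.

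Among 25 further HIF targets, 9 were higher and 4 lower (median 0.27). Ak4, a mitochondrial adenylate kinase, had 181, 115 and 115 normalized counts across IL-33 libraries 1 to 3, against 10.9, 5.82 and 4.89 across PBS libraries 1 to 3. It stood at 137 ± 37.8 in IL-33 libraries and 7.19 ± 3.22 in PBS libraries (SD, n = 3 each; log2 fold change 4.11, SE 0.35, limma adjusted p = 2.98e-04), with every IL-33 library above the PBS range. Ier3, an early response gene (log2 fold change 2.74, SE 0.30), Hmox1, the inducible haem oxygenase (log2 fold change 1.89, SE 0.45), and Pnrc1, a nuclear receptor coactivator (log2 fold change 1.09, SE 0.17), rose. Kdm4c, a histone demethylase, had 195, 87.7 and 72.9 after IL-33, against 365, 391 and 447 after PBS and fell (log2 fold change −1.88, SE 0.35, limma adjusted p = 0.00669). Mxi1, an antagonist of MYC (log2 fold change −1.17, SE 0.18), Zfp395, a zinc finger gene (log2 fold change −1.17, SE 0.26), and Narf (log2 fold change −0.68, SE 0.20) fell too. Ak4, Ier3, Pnrc1, Kdm4c and Mxi1 were called without each library in turn. Hmox1 was not called without PBS library 2 (1.70) or PBS library 3 (1.72), Zfp395 without PBS library 2 (−1.09) or PBS library 3 (−1.10), and Narf without IL-33 library 2 (−0.79), IL-33 library 3 (−0.50), PBS library 1 (−0.64), PBS library 2 (−0.69) or PBS library 3 (−0.70). With equal totals, 27 of the list passed the filter, 2 higher and 9 lower, and without Rn45s 25 did, 4 higher and 8 lower. It had 3 and 2 without PBS library 2 or PBS library 3, 4 and 3 without IL-33 library 2, and 10 and 7 without IL-33 library 1.

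Of 18 further regulators of HIF, 4 were higher and 1 lower (median −0.07). Siah2, a ubiquitin ligase for EGLN hydroxylases, had 223, 249 and 236 normalized counts across IL-33 libraries 1 to 3, against 96.3, 64.03 and 56.6 across PBS libraries 1 to 3 and rose (log2 fold change 1.73, SE 0.24, limma adjusted p = 0.00205). The chaperone genes Hsp90ab1 (log2 fold change 1.59, SE 0.27) and Hsp90aa1 (log2 fold change 1.47, SE 0.47), whose proteins hold HIF alpha, and Crebbp, a coactivator of HIF (log2 fold change 0.53, SE 0.17), rose. Ubxn7, a cofactor of the p97 segregase, fell (log2 fold change −1.36, SE 0.38). Siah2 and Hsp90ab1 were called without each library in turn. Hsp90aa1 was not called without IL-33 library 2 (1.77), IL-33 library 3 (1.66), PBS library 2 (1.26) or PBS library 3 (1.26), Crebbp without IL-33 library 2 (0.58), IL-33 library 3 (0.38), PBS library 1 (0.56), PBS library 2 (0.49) or PBS library 3 (0.52), and Ubxn7 without IL-33 library 2 (−1.26), IL-33 library 3 (−0.98), PBS library 1 (−1.45), PBS library 2 (−1.37) or PBS library 3 (−1.25). The counts were 0 higher and 9 lower with equal totals, against 2.38% and 50.5% of all genes. Without Rn45s the counts were 2 and 5, against 8.91% and 34.0% of all genes. Without IL-33 library 1 they were 6 and 6, against 28.02% and 28.40% of all genes. Without PBS library 1 they were 3 and 0, and without any other library 2 and 0.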

How the data were processed

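Total RNA of 6 libraries was cleared of ribosomal RNA and prepared with a directional kit, per the labels' protocols. The authors deposited 1 table of normalized counts per gene, treated here as a signal. The submitters' processing notes name mm10, HISAT2, HTSeq and DESeq2, without versions. How strand and overlapping genes were handled is not given in the sources consulted, so such reads may not be told apart. Dividing a library by its lowest value above 0 gave whole numbers (100% within 0.1 of a read), taken as reads.

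Differences were fitted over the whole table with limma 3.58.1 in R 4.3.3 (trend, two-sided) comparing IL-33 with PBS on log2(normalized count + 1) for genes with at least 10 in at least 3 libraries. A gene was called at a Benjamini-Hochberg adjusted p under 0.05. Fold changes on this scale understate those of low genes, and SD is over 3 libraries. Levels per kilobase use merged exon lengths of GENCODE vM21 (GRCm38), whose coordinates are given. The fit was tried on simulated counts with the same dispersion (scatter beyond sampling) in every gene and no outlying library. The libraries here need not vary in that way, so that run does not test the fit on them. Every pair of libraries differed beyond sampling noise. The mean chi-square of the reads per gene was 47.3 and 78.1 between IL-33 library 1 and IL-33 libraries 2 and 3. It was 11.1 between IL-33 libraries 2 and 3 and 7.20 to 9.95 among PBS libraries. Between IL-33 and PBS libraries it was 68.1 to 137, so IL-33 library 1 was farther from IL-33 library 3 than from PBS library 1 (68.1). Members and lists were chosen with earlier results of these data known. Values by library are given for called members that changed at least 2-fold, their related genes, the HIF factors and the 3 highest members per kilobase, among others. Of each other list, up to 4 called genes per direction with a mean of at least 50 are named. The alternatives were other pseudocounts, filters and scalings, quantile normalization, no trend, edgeR 4.0.16 and DESeq2 1.42.0 on the recovered reads, a replicate block, the Rn45s share as a covariate, removal of trends with GC content and length (splines with 5 degrees of freedom), and each library left out.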

Additional observations from a re-analysis of the deposited data

How the results depend on the processing

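Of 788 log2 fold changes of the 36 genes over the alternatives, 647 kept their direction and their side of the threshold, 76 lost and 33 gained a call, and 32 changed sign, 6 of them of genes called by the main test. The changes of sign with equal totals were Hk2 (−0.76), Pfkp (−0.33), Aldoa (−0.68), Tpi1 (−0.22), Pgk1 (−0.18), Ldha (−0.082), Pfkfb3 (−0.44), Slc16a1 (−0.20), Arnt (−0.95), Vhl (−0.17) and Hif1an (−0.46). Without Rn45s they were Hk2 (−0.15), Aldoa (−0.068) and Arnt (−0.34), and with quantile normalization Hk2 (−0.28), Aldoa (−0.42) and Arnt (−0.0069). Bnip3 turned to 0.20 with edgeR, 0.18 with DESeq2, 0.22 with removal of GC and length trends, 0.22 with a replicate block and that removal, −0.75 to 0.34 when 1 library was left out (0.04 without IL-33 library 2, 0.34 without the third). With the Rn45s covariate the changes were Gpi1 (0.18), Slc2a3 (0.11) and Bnip3 (1.20), and with IL-33 library 1 alone Gpi1 (0.17), Slc2a3 (0.10) and Bnip3 (1.13). Hk3 ranged from −0.39 to 0.20 when 1 library was left out (0.20 without IL-33 library 1). Arnt ranged from −0.053 to 0.28 (−0.053 without IL-33 library 2, −0.028 without PBS library 2). For these and the counts below the cause was not tested.

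With equal totals 2 of the 36 genes were higher and 8 lower, and 3 of 97 other pathway genes were higher and 45 lower. Without Rn45s 6 of the 36 were lower, and 7 of 95 other pathway genes were higher and 34 lower. Lower genes among the 36 numbered 4 with quantile normalization, 0 with the Rn45s covariate, 2 with removal of GC and length trends and 2 with the replicate block and that removal. The Rn45s covariate left 12 other pathway genes higher and 7 lower. Leaving out 1 library gave 15 to 25 higher and 0 to 6 lower of the 36, and 6 to 27 higher and 5 to 27 lower other pathway genes. Over all genes it gave 695 to 2910 higher and 318 to 2950 lower calls, against 1837 and 1522. Of all calls 54.7% were higher, 4.50% with equal totals and 20.8% without Rn45s. The shares of Aldoa and Aldoc changed by 0.148 and −0.148 percentage points with the longest transcript as length, against 0.238 and −0.238.

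Whether libraries with the same number are paired is not stated. Deviations from the group means correlated at 0.0459, 0.242 and −0.164 across genes for same-numbered libraries. For the other pairs the values ran from −0.281 to 0.237. With 3 libraries per group, whose deviations sum to 0, this cannot settle whether they are paired. With a replicate block 23 of the 36 genes were higher, 22 of them shared, and 1 lower (Bnip3l in place of Pfkfb4). Low read counts limit Eno2, Slc16a1, Epas1 and P4ha2.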
